A study of Nothobranchius furzeri with 15 samples.

Results

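The 200 genes that varied most among control livers of the turquoise killifish (Nothobranchius furzeri), a fish of seasonal ponds with a very short life, are described here, with the values they took in livers of fish given rotenone. RNA was counted in 15 liver libraries of 9-week-old males of GRZ, an inbred strain. The solvent DMSO was given in 5 libraries (numbered 1 to 5 in the titles), rotenone at 15 pM in 5 (1 to 5) and rotenone at 150 pM in 5 (8 to 12). How and for how long the fish were treated is not stated in the labels. Nor do they tie each library to its own fish, so spread between libraries may be partly technical. Levels are CPM (counts relative to the library's TMM-scaled total), and log2 values carry a prior count of 2.

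Genes were eligible if they passed a filter on low counts, had a mean of 5 to 1000 CPM over the 15 libraries, and had CPM ranges that overlapped in every pair of the 3 groups. Of 26739 genes in the table, 15834 passed the filter, 9192 of these lay in the CPM range, and 7169 were eligible. The 200 members are the eligible genes with the largest standard deviation (SD) of log2 CPM over the 5 DMSO libraries, so their spread in DMSO and the overlap of the groups are given by the choice and are not findings. The mean over 15 libraries also let rotenone values into the choice. In 42 members the DMSO mean was under 5 CPM, so they entered only through higher rotenone libraries, and in 1 it was over 1000 CPM. Results under rotenone are therefore also given for the 157 members, of 6953 eligible genes, whose DMSO mean alone was 5 to 1000 CPM, a limit chosen after the values were seen. The last member had an SD of 0.887 in DMSO, with 25.6 to 135 CPM in its 5 libraries. The first gene outside had an SD of 0.883, with 8.77 to 49.0 CPM.

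The liver makes most plasma proteins and handles nutrients, bile and foreign compounds, and a piece of it holds hepatocytes beside blood, vessel, bile duct and immune cells. Rotenone blocks complex I, the entry point of electrons from NADH into the mitochondrial respiratory chain. Animals of an inbred strain share nearly all of their genome, and genes that still differ among them in a tissue are often genes that answer to an animal's state or to its mix of cells. The files pair the identifiers with no gene names, and 0 of 26739 matched the reference table of 38438 genes, so no member could be given a name or a role, and no list of pathway or cell type genes could be counted. No sequence could be tied to a member for the same reason. In whole tissue, a change in the number of cells of a type and a change of RNA per cell cannot be told apart.

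Total counts ran from 22185038 to 35672589 per library, the highest in DMSO library 1 and the lowest in 150 pM library 8. Over all 15834 genes, 15 pM library 4 had a median correlation of 0.855 with its own group, and the other 14 libraries had 0.936 to 0.972. At 150 pM, the 10 most abundant genes took 21.2% of the counts in library 8 and 19.1% in library 10, while their share was 25.3% to 29.8% in libraries 9, 11 and 12. Some results that rest on these 3 libraries are given with and without them, and the others with all libraries only. The members took between 0.425% of the counts, in 15 pM library 2, and 2.64%, in 15 pM library 4. In DMSO this share was 1.22%, 0.913%, 0.652%, 1.57% and 1.24% in libraries 1 to 5.

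In DMSO the members were spread over many fold, and counting noise at their mean count was a small part of it. Their SD of log2 CPM ran from 0.887 to 3.68 with a median of 1.14, against a median of 0.203 over the eligible genes. The highest DMSO library of a member was 7.32-fold above the lowest at the median, against 1.42-fold over the eligible genes. The SD that counting alone would give at a member's mean DMSO count had a median of 0.0733 over the members. It reached 0.481 at most, and was below 50% of the observed SD in all 200. Counting noise is larger than this in libraries with few counts, and its part there was not estimated. Members had a median level of 14.0 CPM and the eligible genes 16.8 CPM. The median gene length, recovered from the deposited RPKM, was 2761 bases in the members and 3130 bases in the eligible genes, with quartiles of 1640 and 4850 bases against 1658 and 5187 bases.

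The member with the largest spread in DMSO took low and high values in every group. It stood at 29.5, 0.112, 0.470, 25.8 and 40.4 CPM in DMSO libraries 1 to 5, at 26.1, 0.0368, 65.4, 0.0741 and 51.2 CPM in 15 pM libraries 1 to 5, and at 1.08, 0.333, 50.8, 155 and 52.6 CPM in 150 pM libraries 8 to 12. Each group held 2 libraries at or near 1 CPM or below and 3 libraries above 25 CPM, so the groups overlapped fully. The member with the second largest spread stood at 53.4, 89.1, 3.76, 3380 and 164 CPM in DMSO, at 366, 1.88, 0.694, 1438 and 16.1 CPM at 15 pM, and at 0.8, 1.12, 0.269, 5.37 and 27.8 CPM at 150 pM. Its values were graded rather than split, and its 150 pM libraries reached less than the 2 highest libraries of either other group.

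DMSO library 1 held the highest DMSO level of 87 members (43.5%), against 21.7% of the eligible genes. DMSO library 4 was the lowest in 67 members (33.5%, against 20.5%), and library 3 in 52 (26%, against 16.3%). By a strict cut-off, 1 library seldom stood alone: in 19 members (9.5%) the highest or lowest library lay apart from the other 4 by more than 0.71 of the whole range, against 5.84% of the eligible genes. Of these, 12 were high in library 1 and 1 in library 5, and 6 were low in 1 library. The list itself leaned on library 1: without it 136 of the 200 members were chosen again, against 158 to 185 without any other DMSO library. DMSO library 1 was also the most deeply sequenced library, and the part of depth in this was not tested.

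**Figure D1:**
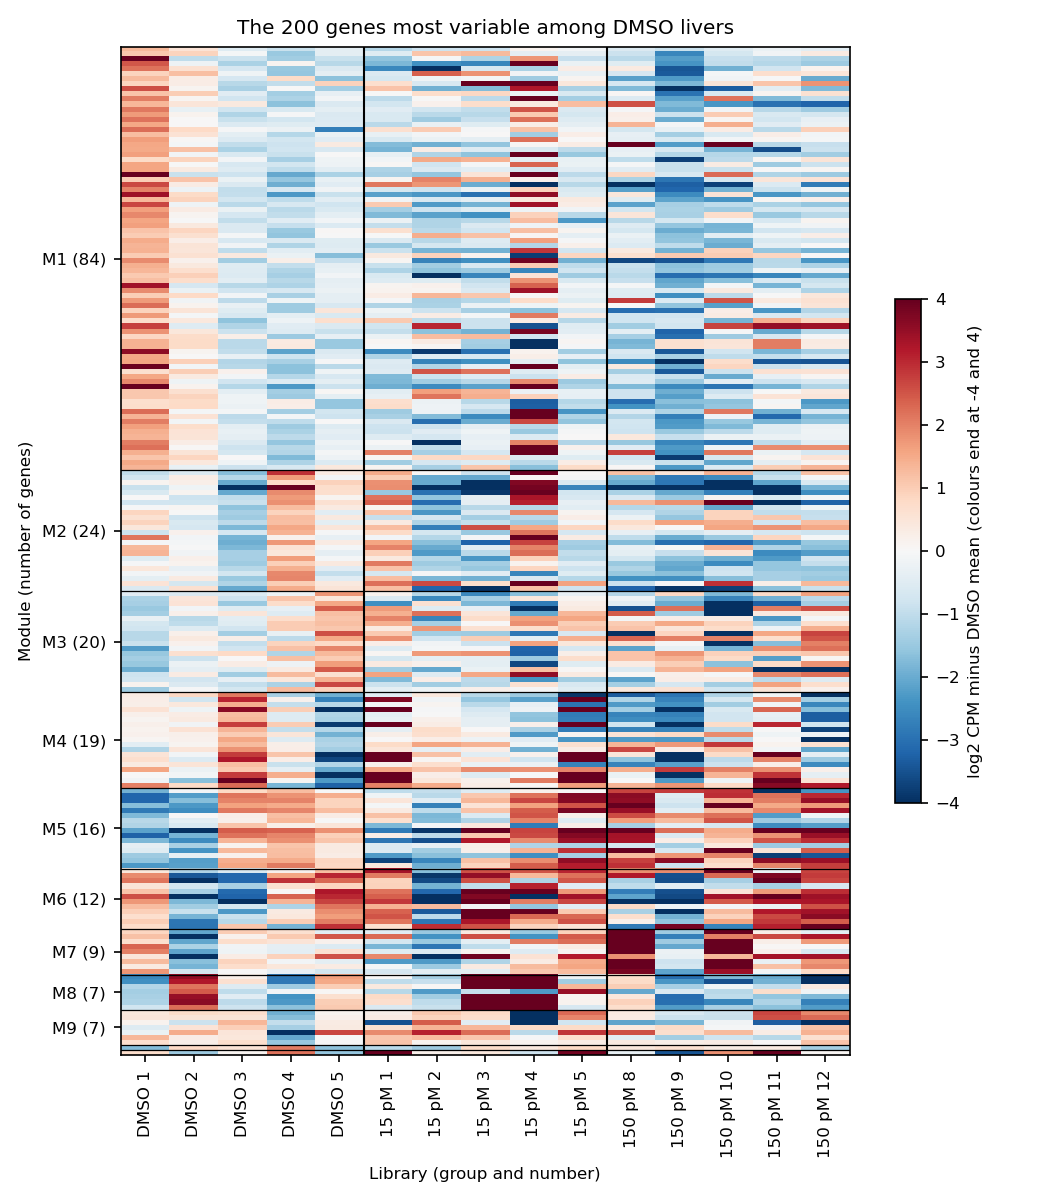
Each row is 1 of the 200 members and each column 1 library, and the colour is log2 CPM minus the mean of the 5 DMSO libraries (colours end at -4 and 4). Rows are grouped by module, and 6 of the 7 members of M8 stand out in 15 pM libraries 3 and 4, as most of the 9 members of M7 do in 150 pM libraries 8 and 10.

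Members that varied together were grouped by the tree of their correlations over the 5 DMSO libraries (average linkage, height 0.5). This gave 11 modules, named M1 to M11 by size, of which 6 had at least 10 genes and held 175 members. The largest, M1, had 84 genes, and DMSO library 1 was the highest DMSO library in 77 of them. Its mean level, as log2 CPM relative to the DMSO mean, was 1.73, 0.35, -0.62, -0.95 and -0.50 in DMSO libraries 1 to 5. In M2 (24 genes) DMSO library 4 was highest, at 1.53, and library 3 lowest, at -1.57. In M3 (20 genes) library 5 was highest, at 1.48, and library 1 lowest, at -1.12. M4 (19 genes) ran from 2.09 in library 3 to -2.35 in library 5, and library 5 was the lowest in all 19 genes. M5 (16 genes) was low in DMSO libraries 1 and 2, at -1.89 and -1.69, and between 0.74 and 1.53 in the other 3. M6 (12 genes) was low in libraries 2 and 3, at -2.29 and -1.87, and between 0.65 and 2.25 in the others. With 5 libraries, many unrelated genes fall into the same order, so the modules are a description of DMSO only, and the rotenone libraries, which did not define them, give the check.

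On average, members of 1 module also varied together under rotenone. The means below count each pair once, and most pairs within modules came from M1, the largest. Over the 10 rotenone libraries, with each dose's mean removed, the mean Pearson correlation of pairs in the same module was 0.215 (jackknife SE 0.0854 over libraries, 4387 pairs), against 0.0494 (SE 0.0499, 15513 pairs) for members of different modules and 0.0176 over all pairs of eligible genes. Without 15 pM library 4 and 150 pM libraries 8 and 10 these means were 0.262, 0.0921 and 0.0280. Among the 157 members whose DMSO mean alone met the limit they were 0.190 within and 0.0152 between modules, and 0.263 and 0.0553 without the 3 libraries. With any single rotenone library left out, the mean within modules exceeded that between modules by 0.123 to 0.193, and the mean within modules ran from 0.131, without 150 pM library 9, to 0.237. All pairs share the same 10 libraries and are not independent, and no test was made of them. A correlation above 0.9 was found in 6.95% of pairs within modules, 0.380% of pairs between modules and 1.12% of all eligible pairs, although eligible pairs passed 0.5 in 20.5% of cases, more often than pairs between modules (13.6%) and less often than pairs within modules (33.0%).

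**Figure D2:**
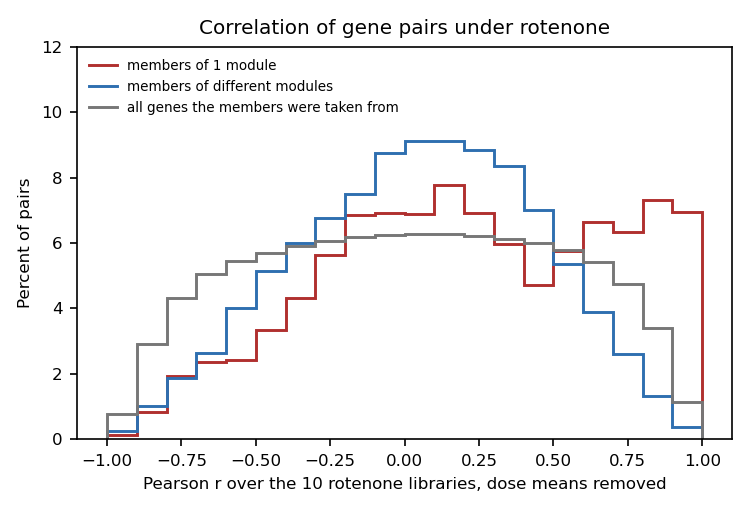
The percent of gene pairs (vertical axis) is shown by Pearson r over the 10 rotenone libraries with dose means removed (horizontal axis, steps of 0.1). Pairs of members in 1 module hold 6.95% of their values above 0.9, against 0.380% for pairs in different modules and 1.12% for all eligible pairs.

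The modules kept together to unequal degrees. The mean correlation under rotenone was 0.188 in M1, 0.382 in M2, 0.101 in M3, 0.313 in M4, 0.332 in M5 and 0.414 in M6, and without the 3 libraries it was 0.251, 0.418, 0.0537, 0.257, 0.271 and 0.465. Of the smaller modules, M9 (7 genes) had 0.354, and 0.141 without the 3 libraries. The values of M7 (9 genes) and M8 (7 genes), 0.688 and 0.588, are no check of the DMSO modules, since 9 and 5 of their genes entered only through high rotenone libraries. The 2 genes of M8 that met the limit in DMSO had a correlation of -0.35. With the genes that met it alone, the mean was 0.264 in M5 (8 of 16 genes), 0.123 without the 3 libraries, and 0.288 in M6 (9 of 12 genes). Over all their genes, M3 had the lowest mean of the modules with at least 10 genes, with and without the 3 libraries. In M1, 62.3% of pairs were positively correlated, against 82.2% in M2 and 82.5% in M4. M1 also came apart in 15 pM library 4, where 27 of its 84 genes lay more than 4-fold above all other 15 pM libraries and 7 more than 4-fold below.

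**Figure D3:**
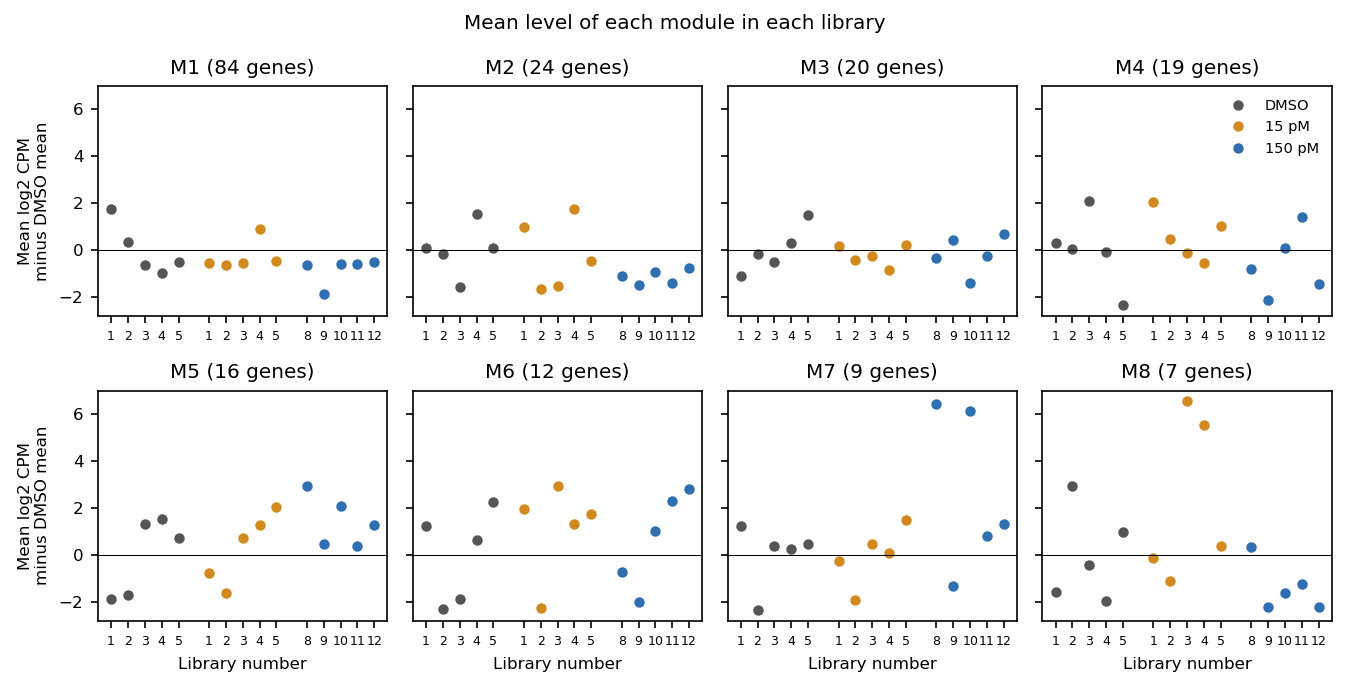
Points give the mean log2 CPM of each module's genes relative to the DMSO mean (vertical axis) in each library (horizontal axis, library number), coloured by group. M7 reaches 6.41 and 6.13 in 150 pM libraries 8 and 10, M8 reaches 6.54 and 5.51 in 15 pM libraries 3 and 4, and M6 spans more than 4 log2 units in all 3 groups.

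Each of the 4 largest modules can be shown by the member that followed its module most closely in DMSO. For M1 this was Nfu_g_1_011754, at 55.4, 23.7, 12.1, 9.47 and 12.1 CPM in DMSO libraries 1 to 5, 9.23, 7.77, 12, 15.8 and 14.2 CPM in 15 pM libraries 1 to 5, and 12.5, 6.07, 4.84, 15.8 and 16.1 CPM in 150 pM libraries 8 to 12. Its SD of log2 CPM was 1.03 in DMSO, 0.42 at 15 pM and 0.80 at 150 pM, and only DMSO libraries 1 and 2 lay above all 10 rotenone libraries. For M2 it was Nfu_g_1_013789, an abundant transcript at 597, 583, 158, 2020 and 771 CPM in DMSO, 1840, 193, 66.7, 3980 and 242 CPM at 15 pM, and 182, 76.2, 67.4, 126 and 216 CPM at 150 pM. The 5 libraries of 150 pM lay within a 3.2-fold range, whereas those of 15 pM spanned 59.7-fold, with libraries 1 and 4 far above the others.

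For M3 it was Nfu_g_1_021215, at 121, 370, 338, 606 and 2580 CPM in DMSO, 179, 114, 395, 1090 and 491 CPM at 15 pM, and 318, 1230, 1440, 21.2 and 10.2 CPM at 150 pM. Here 150 pM was the widest group (SD of log2 CPM 3.31, against 1.61 in DMSO and 1.28 at 15 pM), with libraries 11 and 12 below all 13 other libraries. For M4 it was Nfu_g_1_010847, at 367, 397, 1010, 244 and 147 CPM in DMSO, 358, 426, 305, 255 and 69.9 CPM at 15 pM, and 73.3, 71.0, 167, 352 and 19.5 CPM at 150 pM. DMSO library 3 alone exceeded 426 CPM in this gene, and 3 of the 5 libraries at 150 pM were below 75 CPM.

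**Figure D4:**
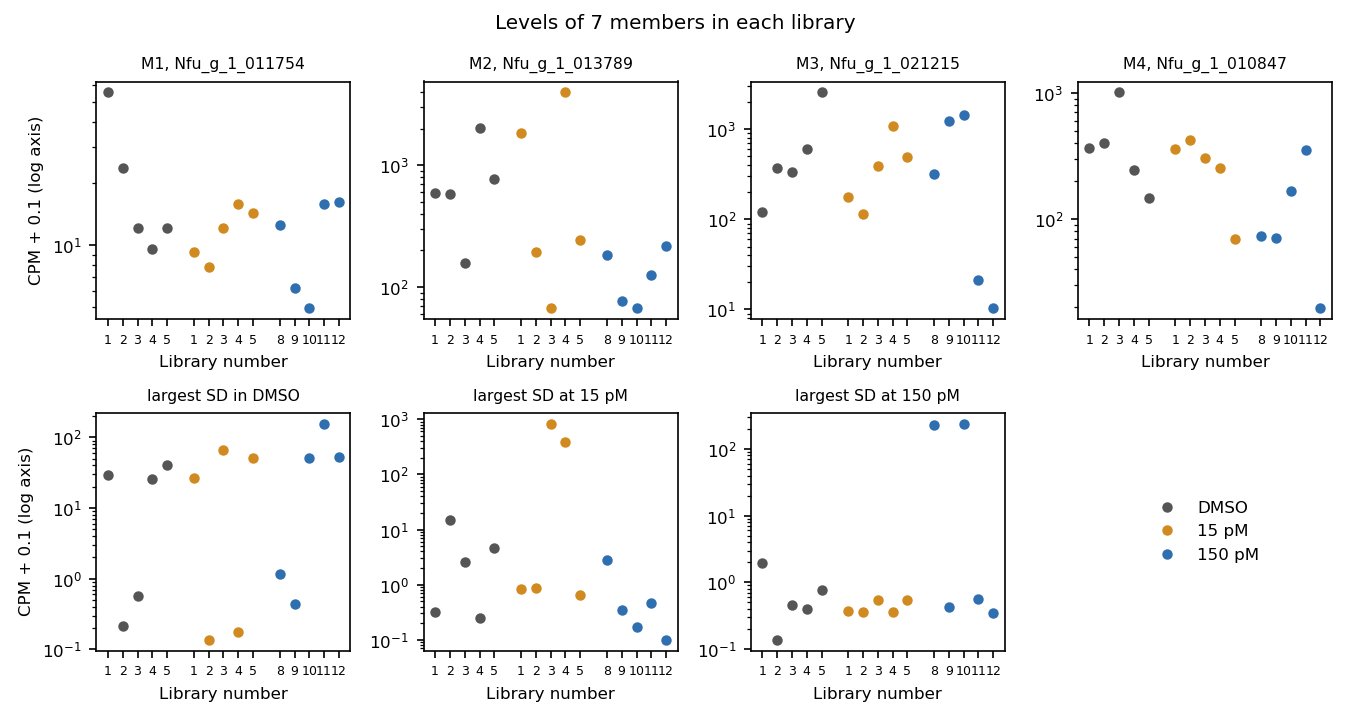
CPM plus 0.1 on a log axis (vertical) is plotted for 7 members in each library (horizontal axis, library number), coloured by group: the members closest to modules M1 to M4, and those with the largest SD in DMSO, at 15 pM and at 150 pM. The member with the largest SD in DMSO has low and high libraries in all 3 groups, whereas the other 2 in the lower row are high in 15 pM libraries 3 and 4 or in 150 pM libraries 8 and 10.

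Most members also varied widely under rotenone. Spread at the doses entered the choice through the overlap of ranges and through the mean over all libraries, as given above. The median SD of the members was 1.45 at 15 pM and 1.25 at 150 pM, against 0.376 and 0.261 over the eligible genes. An SD at or above that of the last member, 0.887, was reached at 15 pM by 155 members (77.5%) and by 13.1% of the eligible genes, which include the members. At 150 pM it was reached by 141 members (70.5%) and 6.3% of the eligible genes. At both doses 118 members (59%) reached it, against 4.06% of the eligible genes, and 22 members reached it at neither. Without the 3 libraries that stand apart, 84 members (42%) reached it at both doses, against 1.84% of the eligible genes, and 52 at neither. Of the 157 members whose DMSO mean alone met the limit, 79 (50.3%) reached it at both doses, against 3.25% of the eligible genes so limited, and 58 (36.9%, against 1.4%) without the 3 libraries. Their median SD was 1.28 at 15 pM and 1.12 at 150 pM. The median at 15 pM was 1.02 without library 4 and 1.31 to 1.57 without any 1 of the others, and that at 150 pM was 1.09 to 1.3 without any 1 library.

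With all libraries, the spread under rotenone was similar at low and higher levels. Of the 123 members under 20 CPM, 78% reached the SD of 0.887 at 15 pM and 69.9% at 150 pM, against 459 and 242 of the 4051 eligible genes under 20 CPM. Of the 77 members from 20 CPM, 76.6% and 71.4% did, against 479 and 210 of 3118 eligible genes. Without the 3 libraries that stand apart, 56.9% of members under 20 CPM reached it at 15 pM and 52.8% at 150 pM. From 20 CPM 57.1% and 68.8% did, so the shares were similar at 15 pM but not at 150 pM. The eligible genes had 3.36% and 4.57% under 20 CPM, and 3.21% and 6.32% from 20 CPM. Among the 200 eligible genes with the largest SD at 15 pM, 78 (39%) were members, and among the 200 with the largest SD at 150 pM, 85 (42.5%), whereas members are 2.79% of the eligible genes. The 42 members that entered only through higher rotenone libraries were counted here, so these shares follow in part from the choice. They were not taken without those members. Across the 7169 eligible genes, the Spearman correlation of the SD in DMSO with that at 15 pM was 0.47, with that at 150 pM 0.53, and between the doses 0.46. These are correlations across genes, which are not independent replicates, and the genes share libraries, depth and their mean level.

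Modules differed in how widely they varied at the doses, which for M7 and M8 follows in part from how their genes entered. All 7 genes of M8, 11 of 12 in M6, 8 of 9 in M7, 13 of 16 in M5 and 15 of 19 in M4 reached the SD of 0.887 at both doses. Some of these genes had few counts at a dose. A gene of M8 had counts of 12, 0, 2, 1 and 0 at 150 pM, with an SD of 1.20. A gene of M7 had counts of 0, 0, 2, 10 and 25 at 15 pM, with an SD of 1.65. The part of counting noise in the spread at the doses was not estimated. In M1 35 of 84 did (41.7%) and in M2 11 of 24 (45.8%). M6 covered nearly the same range in each group, from -2.29 to 2.25 in DMSO, from -2.28 to 2.92 at 15 pM and from -1.99 to 2.79 at 150 pM. M2 covered -1.57 to 1.53 in DMSO and -1.66 to 1.76 at 15 pM, but only -1.49 to -0.78 at 150 pM. M1 reached 1.73 in DMSO and 0.91 at 15 pM, in library 4, while its highest 150 pM library was at -0.51. These are levels of module means, whose range also narrows when genes of a module move in different directions. The median SD of the single genes at 150 pM was 1 in M2 and 1.05 in M1, against 1.12 and 1.06 in DMSO. The choice of members used these libraries, so no test was made of these group differences.

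**Figure D5:**
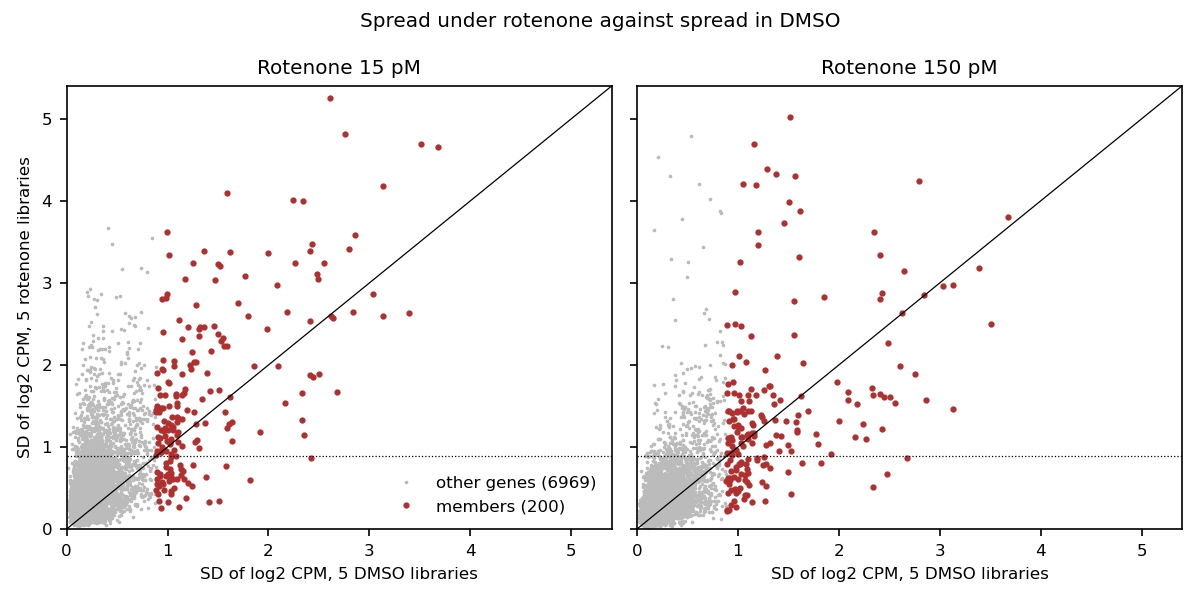
Each point is an eligible gene, with its SD of log2 CPM in DMSO on the horizontal axis and that at 15 pM (left) or 150 pM (right) on the vertical axis, and the 200 members are in red. The dotted line marks the SD of the last member, 0.887, which 155 members reached at 15 pM and 141 at 150 pM, and the solid line marks equal SD.

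The difference in spread between the doses was tested for each gene with limma on absolute deviations from the group mean (two-sided, Benjamini-Hochberg adjusted p under 0.05). Over all 15834 genes, 1.59% were called, 0.935% as wider at 150 pM and 0.65% as wider at 15 pM. Of the members, 14 (7%) were called. The 10 called as wider at 150 pM had a median SD of 4.25 there and 1.12 at 15 pM. In 6 of these 10 genes, 150 pM libraries 8 and 10 were more than 4-fold above libraries 9, 11 and 12. In others of the 10 they lay far below. A gene of M6 stood at 0.32 and 0.369 CPM in libraries 8 and 10, and at 39.9, 23.8 and 61.8 CPM in libraries 9, 11 and 12. A gene of M3 stood at 9.68 and 4.0 CPM in libraries 8 and 10, and at 736, 1184 and 2660 CPM in the other libraries of that dose. The DMSO mean alone met the CPM limit in 5 of the 10, and the other 5, all from M7, entered only through the rotenone libraries. The 4 called as wider at 15 pM had a median SD of 3.73 there and 1.26 at 150 pM, and 3 of them belonged to M8. Of these 4, 0 had a DMSO mean in the CPM range, so their membership is not independent of this spread. At an unadjusted p under 0.05 with limma, the members were in total no more frequent than other genes, with 40 of 200 (20%) against 20.7% of all genes. The directions differed. Of the 200 members, 18 were wider at 150 pM and 22 at 15 pM, against 885 and 2396 of all 15834 genes.

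The number of calls changed with the libraries used and with the way deviations are taken. Without 15 pM library 4 and 150 pM libraries 8 and 10, limma called 0 members, with 27 at an unadjusted p under 0.05, and 9 genes in all. Fewer libraries also give the test less power, and the part of this was not tested. With 15 pM library 4 alone left out, 13 members and 333 genes were called. With deviations from the group median, limma called 0 of all genes. At an unadjusted p under 0.05 it had 558 (3.52%), of which 4 were members, and that share is below the threshold itself. With 150 pM library 8, 10 or 11 left out, 7, 3 and 9 members were called, and 28 with 15 pM library 5 left out. Over all genes, 105 were called when 150 pM library 8 was left out and 75 when it was library 10. The number was 154 when DMSO library 2 was left out, 564 for 15 pM library 2 and 799 for 15 pM library 5.

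Some members had their libraries in clearly separate sets of low and high levels. In 34 members (17%) the 15 libraries fell into 2 sets separated by a gap of more than 8-fold on the log2 CPM scale with its prior count, against 1.77% of the eligible genes. This measure was chosen after the values were seen, and only 11 of the 34 had a DMSO mean in the CPM range. The split ran within DMSO in 14 of these genes, within 15 pM in 20 and within 150 pM in 16. It ran within all 3 groups in 4 genes, the member with the largest spread among them, and in 23 genes the high set was 1 or 2 libraries.

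Several sets of at least 4 such members shared the same split. In 8 genes, 6 of them from M7 and 2 from M5, 150 pM libraries 8 and 10 were high. They ran from 34.8 to 239 CPM there, with a median of 120 CPM, and from 0 to 7.17 CPM in the other 13 libraries, with a median of 0.434 CPM. In 7 genes, 6 of them from M8, 15 pM libraries 3 and 4 were high, from 19.1 to 826 CPM, with a median of 128 CPM, and the other libraries ran from 0 to 18.9 CPM, with a median of 0.552 CPM. Each gene had its own gap of at least 8.74-fold, although the ranges over the 7 genes nearly met. The median of these 7 genes in DMSO library 2 was 10.6 CPM, and the other DMSO libraries had 0.148 to 2.43 CPM. M8 was defined in DMSO, where library 2 was the highest in all its genes, so this difference is given by the choice.

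In 5 further genes, all from M1, 15 pM library 4 alone was high, from 69.0 to 155 CPM, and all others were at or below 8.87 CPM. Their median in DMSO library 1, 6.51 CPM, was above that of the other 4 DMSO libraries, 0.776 to 1.86 CPM. M1 was defined in DMSO, where library 1 was its highest, so this difference is given by the choice. The high values also entered the mean over 15 libraries, so the membership of these 5 genes rests in part on 15 pM library 4. The fourth set was the reverse, with DMSO library 5 and 150 pM library 9 low. It held 4 genes of M4, at 0.0416 to 0.477 CPM in these libraries and 1.88 to 320 CPM in the other 13. Their medians were 245 and 230 CPM in 15 pM libraries 1 and 5, and 6.45 to 11.9 CPM in the other 3 of that group. The 2 low libraries belong to different treatment groups. All 7 eligible genes with the split of 15 pM libraries 3 and 4, and all 4 with that of DMSO library 5 and 150 pM library 9, were members, whereas 22 eligible genes had that of 150 pM libraries 8 and 10, and 11 that of 15 pM library 4.

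The libraries that stand apart from their groups thus met the members in part. In 12 members (6%) and 0.586% of the eligible genes, 150 pM libraries 8 and 10 both exceeded the remaining 3 of that dose by more than 4-fold. In 3 members (1.5%) and 0.0558% of the eligible genes both lay more than 4-fold below them. In 15 pM library 4, 32 members (16%) were more than 4-fold above and 16 (8%) more than 4-fold below the other 4, against 1.44% and 4.17% of the eligible genes. Of the 12 members with 150 pM libraries 8 and 10 high, 7 were from M7, whose 9 genes all entered only through rotenone libraries. That excess was therefore in part given by the choice. In M1, which held 27 of the 32, the DMSO mean was outside the CPM range in 10 of 84 genes. How many of those 10 were among the 27 was not counted, so the part of the choice in this excess is not known. Neither count was taken for members within that range alone.

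Members listed next to each other in the deposited table varied almost in step. Of the 200, 18 formed 9 pairs in neighbouring rows, and their correlation over the rotenone libraries, dose means removed, had a median of 0.978 and a range of 0.703 to 0.9995. The 2356 neighbouring pairs of eligible genes, most of which vary less, had a median of 0.166. Pairs of M8 had 0.978 and 0.977, and 5 of the 7 genes of M8 entered only through high rotenone libraries. The median was not taken for members with a DMSO mean in the CPM range alone. In 7 of the 9 pairs both genes were in the same module. One pair of M1 stood at 353 and 520 CPM in DMSO library 1, 47.5 and 71.2 CPM in DMSO library 5, 5.89 and 9.11 CPM in 15 pM library 4 and 557 and 808 CPM in 150 pM library 11. A pair of M4 stood at 0.398 and 0.119 CPM in DMSO library 5 and at 274 and 87.0 CPM in 15 pM library 1. A pair of M8 stood at 826 and 718 CPM in 15 pM library 3 and was listed at 0 in 150 pM library 12. How reads matching several genes were counted is not stated, so neighbouring genes that share reads could not be told apart from genes that vary together. Whether neighbouring rows are neighbours in the genome is not given either.

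Calls for a difference in level were limited by the choice, which required overlapping groups. With edgeR's quasi-likelihood test over all genes (adjusted p under 0.05), 4.21% of genes were called for 15 pM against DMSO and 1 of the 200 members, 5.66% for 150 pM against DMSO and 6 members, and 14.1% for 150 pM against 15 pM and 20 members. Of the 6, 5 belonged to M7, and of the 20, 6 belonged to M7 and 6 to M8, the modules that were high in pairs of libraries. The 3 shares were 0.5%, 3% and 10% of the members, and 0.293%, 1.02% and 5.12% of the eligible genes, which meet the same requirement of overlap. Nothing is read from these counts, since the choice used the same groups, and both comparisons with DMSO share the same controls.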

How the data were processed

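Libraries were made from total RNA of liver with a TruSeq kit (version v2, RNA) that keeps no strand information, per the labels' protocols. Tools named, per the submitters' processing notes, are featureCounts 1.4.6-p4, STAR 2.4.1d and CASAVA 1.8.2. The genome build was not given in the sources used here, nor was the annotation. As deposited, the authors' files hold whole-number read counts per gene, not normalized, for 26739 identifiers, and RPKM. The deposited RPKM values fit the counts only if library totals are taken in turn down the rows (100% of 105783 values gave 1 gene length within 0.2%, against 8.73% with each library's own total), so they served only to recover gene lengths.

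Counts were analysed in R 4.3.3 with edgeR 4.0.16 (filterByExpr by group, minimum count 10, TMM, quasi-likelihood test, 1 mean per group over 15 libraries) and limma 3.58.1 (absolute deviations of log2 CPM, prior count 2). Both were tested on simulated data with 200 changed genes. Wrong calls were 11 of 171 for the test of level, and 9 of 42 and 6 of 93 for the test of spread, more than the threshold allows. The test of level recovered 80% of genes changed 4-fold. The test of spread recovered 16.5% of genes with a 4-fold larger SD and 43.5% with a 10-fold larger SD, so few calls do not show equal spread. In the simulated data for spread, the SD set before the change was below that of any member in DMSO, and no library stood apart. These rates may therefore not hold for the members. The members and measures were chosen with earlier results of these data known. Identifiers were printed for the member closest to each of the 4 largest modules only. P-values set a difference between groups against the spread between these libraries, which the labels do not tie to single fish. For counting error only, where a gene has no count its level may be up to that of 3 counts, which is 0.0841 to 0.135 CPM by library. Alternatives were RLE factors, library totals, no filter, other prior counts, DESeq2 1.42.0, other trees, a replicate block and leaving out libraries.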

Additional observations from a re-analysis of the deposited data

Results flagged for a closer look

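A library far from the other 4 of its group was found in 3 of 33 sets of 5 values examined, and chance gives about 1 in 20 for normal values. The sets share the same libraries and are not independent. The mean log2 level of M1 was 0.91 in 15 pM library 4, where the other 4 libraries lay between -0.65 and -0.47, and -1.85 in 150 pM library 9, where the others lay between -0.61 and -0.51. Nfu_g_1_010847 stood at 69.9 CPM in 15 pM library 5, against 255 to 426 CPM in the other 15 pM libraries. What moved these libraries was not tested.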

How the results depend on the processing

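No pairing of DMSO and 15 pM libraries by replicate number was seen, though 5 libraries a side could miss a weak one. Same-numbered libraries had correlations of -0.0525 to 0.0914, and 0 DMSO libraries correlated best with their own number. In the DMSO and 15 pM libraries alone, edgeR called 1 gene of all with the replicate block and 276 without it. Members called for 15 pM against DMSO numbered 0 with the replicate block, with RLE factors and with no filter, 11 with DESeq2 and 3 without 15 pM library 4 and 150 pM libraries 8 and 10, against 1, and 23 had an unadjusted p under 0.05 with edgeR. For 150 pM against DMSO they numbered 3 with library totals and 29 with DESeq2, against 6. For 150 pM against 15 pM they numbered 38 with DESeq2 and 1 without the 3 libraries, against 20. DESeq2 gave no adjusted p for 23 members. With single libraries left out these 3 counts ran from 0 to 3, 0 to 15 and 7 to 22. The highest of the first pair came without 15 pM library 4, and the lowest of the last without 150 pM library 10. Genes differing in spread between the doses numbered 1005 with no filter, 795 with a variance trend (added after the data were seen), 9 without the 3 libraries and 0 with group medians, against 251, and members among them 8 with a prior count of 0.5, 5 with only members whose DMSO mean was in the CPM range (added after the data were seen), 0 without the 3 libraries and 0 with group medians, against 14. With single libraries left out they ran from 75 to 799 and from 3 to 28. The cause was not tested. The correlation within modules was 0.351 with complete linkage, and 0.131, without 150 pM library 9, to 0.237 with single libraries left out. Median SDs ran from 1.02 to 1.57 at 15 pM, lowest without library 4, and from 1.09 to 1.3 at 150 pM, and members past the SD limit at both doses from 96 to 120. Choosing the list again without 1 library shared 136 to 194 members with it, the fewest without DMSO library 1. Depth limits levels near 0.1 CPM, where a count of 0 and a few counts differ little.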
